A study of Mus musculus with 5 samples.

Results

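Aminoacyl-tRNA synthetases attach each amino acid to its transfer RNA and so supply the ribosome with its substrates. The genes described here were chosen by symbol from a list of known synthetases, 20 for cytosolic and 16 for mitochondrial enzymes, whose symbols end in 2. All 36 were present among the 33894 genes of the count and TPM files. Transcripts were measured by bulk Smart-seq2 RNA sequencing in haematopoietic stem cells from the bone marrow of mice at 8 weeks of age, with RNA from 6K cells per library. The sort gate took cells negative for lineage markers, CD34 and Flt3, positive for Sca1 and high in c-Kit. The libraries labelled dKO (n = 3) came from Vav-cre animals that were Lrp5 fl/fl and Lrp6 fl/fl, with floxed alleles of the Wnt co-receptor genes, and the WT libraries (n = 2) came from wild type animals. The Vav promoter drives Cre throughout the blood system, and the labels name Cre for the dKO group only, so Cre and the loss of the genes cannot be told apart. Nothing in the labels ties the libraries to separate mice, so p-values measure the spread between libraries, which may be technical.

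Synthetases belong to class I or class II, which differ in the fold of the catalytic domain. Part of the cytosolic enzymes sit in the multisynthetase complex, held together by the scaffold proteins Aimp1, Aimp2 and Eef1e1, and the rest act outside it. Eprs joins the glutamyl enzyme, of class I, and the prolyl enzyme, of class II, in a single chain, and Farsa and Farsb are the subunits of the phenylalanyl enzyme. Gars and Kars serve the mitochondria as well as the cytosol from a single gene, while most other mitochondrial enzymes have a nuclear gene of their own. Many cytosolic synthetase genes are known targets of Atf4, the transcription factor of the amino acid response. Haematopoietic stem cells are known for a low rate of protein synthesis.

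Library totals lay between 16028512 and 26869348 counts in the libraries labelled dKO and were 26242672 and 28027458 in WT, and 12894 to 16098 genes had a count per library. dKO replicate 2 was the shallowest, detected the fewest genes and stood apart, correlating at no more than 0.851 with any other library in log2 CPM. CPM here are counts relative to library size, as scaled by edgeR's TMM factors. Lrp6 had 790, 260 and 767 counts in the libraries labelled dKO and 660 and 232 in WT, and Lrp5 had 37, 2 and 71 counts in the libraries labelled dKO and 7 and 32 in WT. Neither was lower in the libraries labelled dKO, and a count over a whole gene does not show the loss of an exon, so each direction below rests on the labels. Stem cell markers, fixed with earlier results known, were detected in every library (12 of 12). Their summed level was 2613.8 to 2790.0 CPM in the libraries labelled dKO, against 1945.8 and 1288.2 CPM in WT replicates 1 and 2. In bulk samples, fewer cells of a type and less RNA per cell cannot be told apart.

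By transcript level per length, in TPM, the lysyl enzyme Kars was the most abundant cytosolic synthetase, with 288, 340 and 294 TPM in dKO replicates 1, 2 and 3, against 420 and 418 TPM in WT replicates 1 and 2. Nars, which charges asparagine tRNA, had 264, 315 and 238 TPM in the libraries labelled dKO and 342 and 540 TPM in WT. The aspartyl enzyme Dars followed with 249, 341 and 206 TPM in the libraries labelled dKO and 334 and 380 TPM in WT. For Kars and Nars every library labelled dKO lay below both WT libraries, and for Dars the range of the libraries labelled dKO reached into that of WT.

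At the low end of the cytosolic list, the alanyl enzyme Aars had 28.7, 14.7 and 25.9 TPM in the libraries labelled dKO and 36.5 and 44.1 TPM in WT. The tryptophanyl enzyme Wars had 47.6, 42.2 and 34.5 TPM in the libraries labelled dKO and 33.9 and 43.4 TPM in WT, and the groups overlapped. Cars, for cysteine, had 44.7, 41.3 and 28.8 TPM in the libraries labelled dKO and 44.6 and 71.2 TPM in WT. Mean levels over the 5 libraries ranged from 30.0 TPM for Aars to 352 TPM for Kars.

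Mitochondrial synthetase transcripts were scarcer, with mean levels from 4.93 TPM for Mars2 to 119 TPM for Rars2 and a median of 24.9 TPM, against 110 TPM for the cytosolic list. In all 17 pairings of a cytosolic and a mitochondrial enzyme for the same amino acid, the cytosolic gene had the higher mean level, by 1.03-fold for Cars over Cars2 up to 19.7-fold for Mars over Mars2. The summed level of the 20 cytosolic genes was 2313.1 ± 320 TPM in the libraries labelled dKO, against 3079.7 ± 379 TPM in WT (SD, n = 3 and n = 2). For the 16 mitochondrial genes the sums were 548 ± 27.8 TPM in the libraries labelled dKO and 583 ± 45.4 TPM in WT, a difference within the spread of the WT libraries. In CPM the mitochondrial sums were 846, 734 and 908 in the libraries labelled dKO, against 970 and 994 in WT, and the groups did not overlap.

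**Figure D1:**
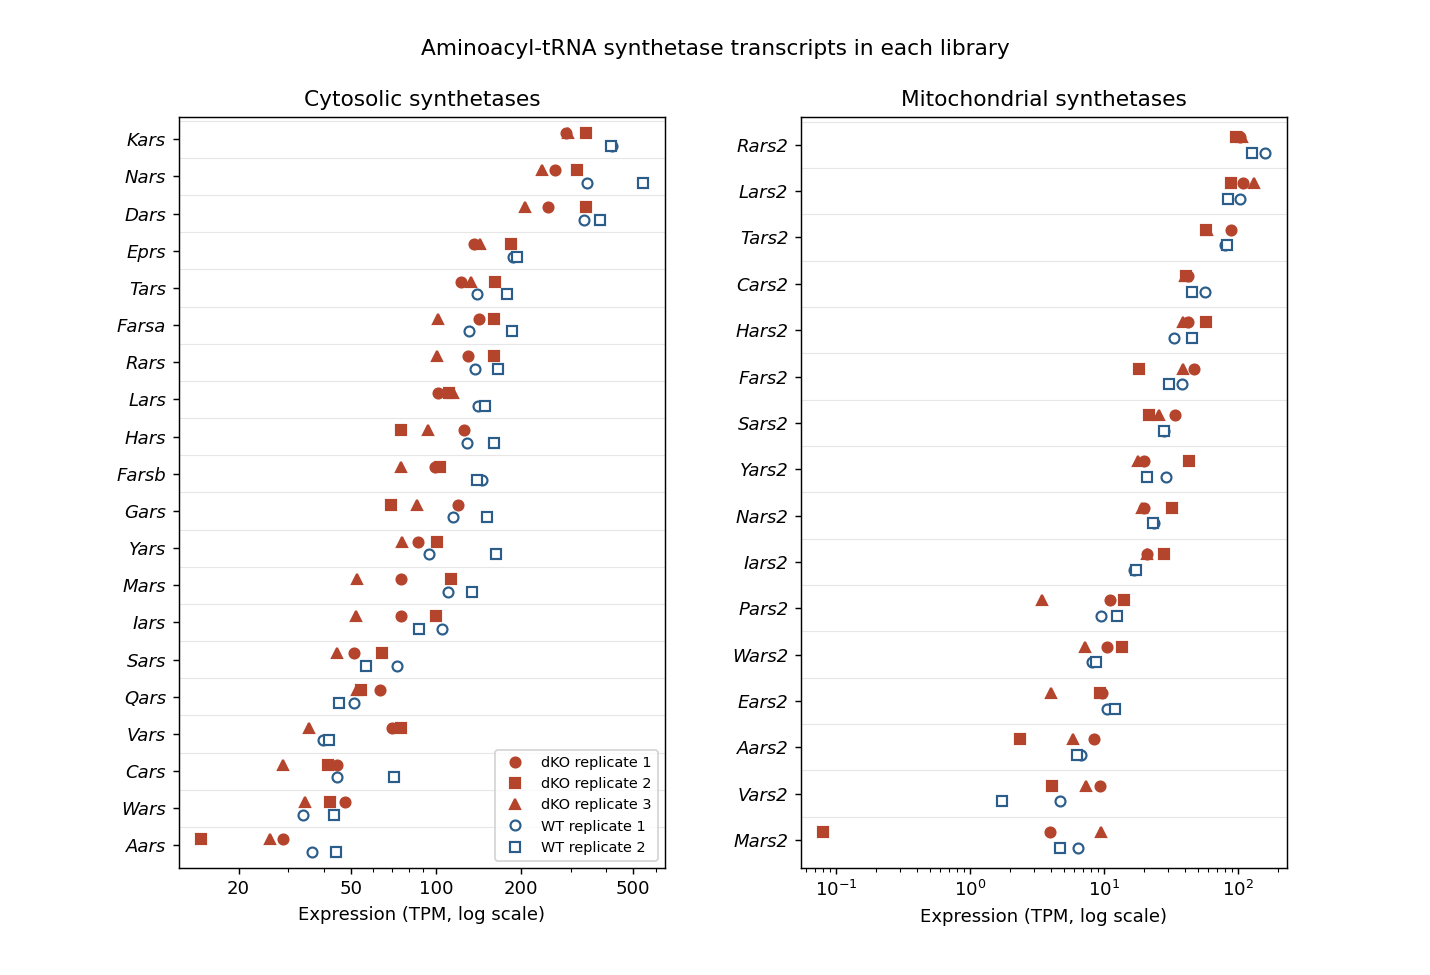
Transcript level of each synthetase gene in each library, in TPM on a log axis, cytosolic genes on the left and mitochondrial genes on the right, ordered by mean level. Filled symbols are the libraries labelled dKO and open symbols WT, with the replicate given by shape. Kars, with 352 TPM on average, heads the cytosolic list, and Mars2 has its lowest value, 0.0798 TPM, in dKO replicate 2.

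The study's design sets cells labelled as deficient for both co-receptors against wild type cells. No synthetase gene passed the test adjusted over all genes. With edgeR (quasi-likelihood test, p-values adjusted by Benjamini-Hochberg over 13696 genes), 0 genes of any kind were called lower and 0 higher in the libraries labelled dKO, a background of 0%. Adjusted p-values of the 36 members ran from 0.430 for Farsb to 0.994 for Hars2. At an unadjusted p under 0.05, 12 of 20 cytosolic members were lower and 0 higher, where 5.19% of all tested genes were lower and 4.94% higher. Of the 16 mitochondrial members, 1 was lower at that level, Rars2, and 0 were higher. DESeq2 called 1 member lower, Farsb (adjusted p = 0.0156 by DESeq2 with Benjamini-Hochberg adjustment), in a table where it called 0.678% of genes lower, and limma-voom called 0 genes.

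The cytosolic list lay below WT nearly throughout. Its log2 fold change was below 0 in 19 of 20 members, with a median of -0.62, where 47.8% of all tested genes were below 0 and their median was 0.04. Of the 16 mitochondrial members 13 were below 0, with a median of -0.24. In CPM every library labelled dKO lay below both WT libraries for 15 of 20 cytosolic and 3 of 16 mitochondrial members, against a background of 15.6% of genes. The opposite order, against a background of 13.7%, held for 0 cytosolic members and for 1 mitochondrial member, Vars2.

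The deposited TPM values gave a smaller number. There, 7 of 20 cytosolic members had every library labelled dKO below both WT libraries, where 8.81% of tested genes did, and so had 3 of 16 mitochondrial members (Cars2, Ears2 and Rars2). For 1 cytosolic member, Qars, and 1 mitochondrial member, Iars2, every library labelled dKO lay above WT, against a background of 18.6%. On log2 TPM with a pseudocount of 1 the median of all genes was 0.14 and that of the cytosolic list -0.43, a distance of -0.57, against -0.66 in the counts, and 17 of 20 cytosolic members were below 0. At an unadjusted p under 0.05, 3 of 20 cytosolic members were lower on log2 TPM with either pseudocount, against 12 in the counts, where 2.72% of all tested genes were lower with a pseudocount of 1 and 2.59% with 0.1. The mitochondrial list lay at a distance of -0.22 in TPM and -0.28 in the counts.

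**Figure D2:**
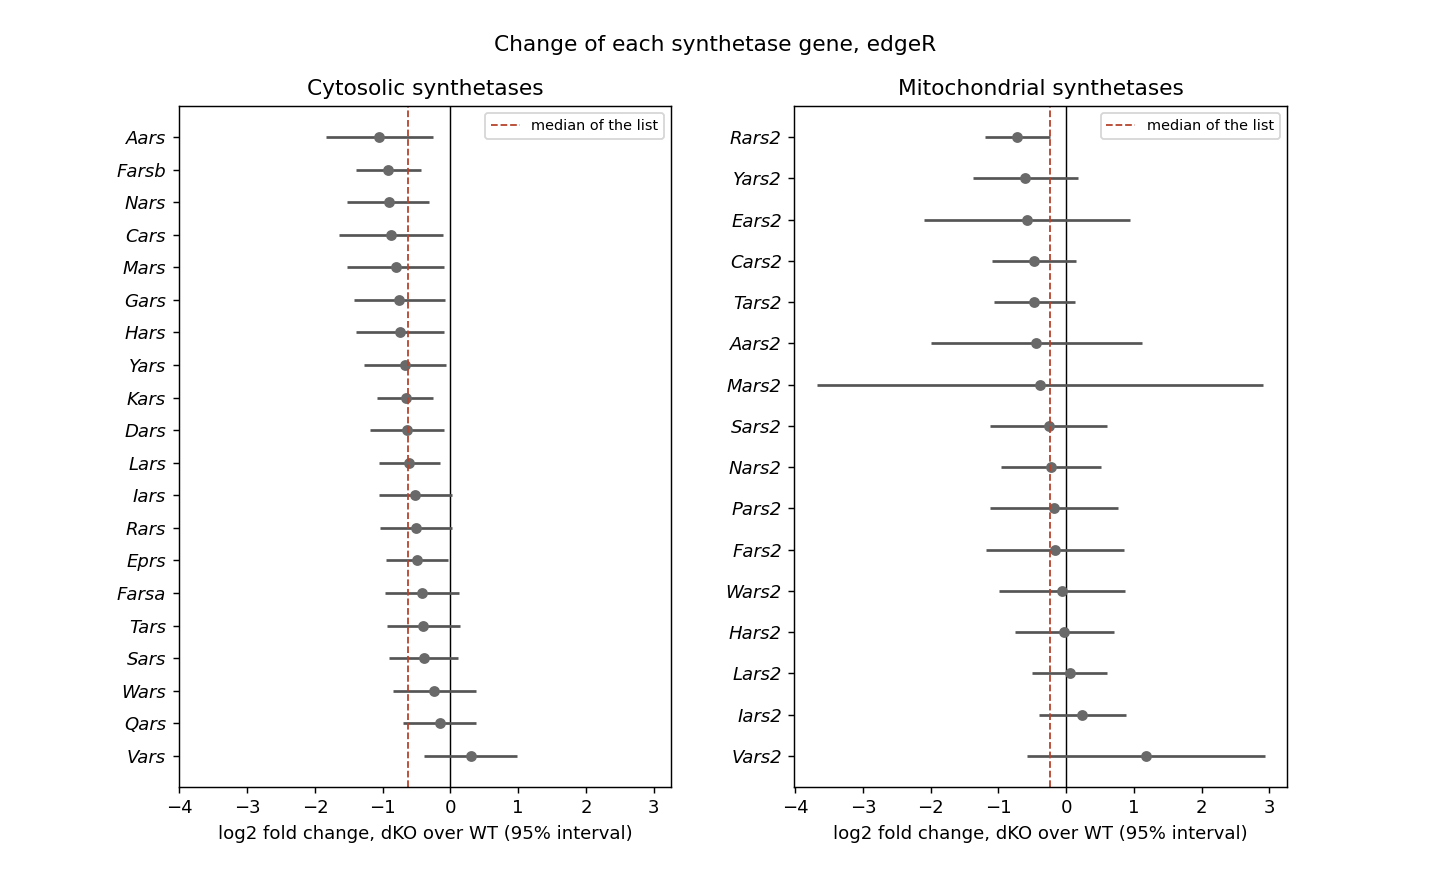
Log2 fold change of each synthetase gene, dKO over WT, with the 95% interval from edgeR, cytosolic genes on the left and mitochondrial genes on the right. The dashed lines mark the list medians, -0.62 and -0.24. The interval lies wholly below 0 for 12 of 20 cytosolic genes and for 1 of 16 mitochondrial genes, Rars2. Such an interval corresponds to an unadjusted edgeR p under 0.05 as lower, which 5.19% of all tested genes had. No gene passed the adjusted test.

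Farsb, the beta subunit of the phenylalanyl enzyme, had the smallest p-value of the members. It had 123, 116 and 94.7 CPM in dKO replicates 1, 2 and 3, against 199 and 221 CPM in WT replicates 1 and 2, with a log2 fold change of -0.92 (95% interval -1.39 to -0.44; by edgeR, adjusted p = 0.430). The groups did not overlap. In GENCODE M21 Farsb has an exon overlap of 248 bases with Sgpp2 on the opposite strand, so its counts are uncertain. The alpha subunit Farsa, which carries the catalytic site, had 215, 209 and 178 CPM in the libraries labelled dKO, against 211 and 327 CPM in WT, a log2 fold change of -0.42 (95% interval -0.96 to 0.12), and its groups overlapped. The level of Farsa over Farsb, a ratio picked out after the values were seen, was 1.43, 1.55 and 1.35 in TPM in the libraries labelled dKO and 0.903 and 1.33 in WT.

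The enzymes of the multisynthetase complex, Dars, Eprs, Iars, Kars, Lars, Mars, Qars and Rars, all had values below 0 (8 of 8, median log2 fold change -0.57), and for 7 of them every library labelled dKO lay below WT in CPM. Among all tested genes 47.8% were below 0 and 15.6% had that order. Kars had 315, 384 and 359 CPM in the libraries labelled dKO, against 516 and 599 CPM in WT, a log2 fold change of -0.66 (95% interval -1.08 to -0.25; edgeR adjusted p = 0.434). The leucyl enzyme Lars had 203, 222 and 257 CPM in the libraries labelled dKO, against 312 and 381 CPM in WT, with a log2 fold change of -0.61 (-1.06 to -0.16; edgeR adjusted p = 0.436). All values of both genes in the libraries labelled dKO were under those of WT.

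Dars had 291, 400 and 269 CPM in the libraries labelled dKO, against 430 and 566 CPM in WT, with a log2 fold change of -0.64 (-1.18 to -0.10; edgeR adjusted p = 0.446). In this gene dKO replicate 2 came close to WT replicate 1. The methionyl enzyme Mars had a log2 fold change of -0.81, the isoleucyl enzyme Iars -0.52, the arginyl enzyme Rars -0.51 and the bifunctional Eprs -0.49. In GENCODE M21 Mars shares exon bases on the opposite strand with Ddit3, whose log2 fold change was 0.77, and the counting is not stated to use strand.

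Qars, the glutaminyl enzyme, was the exception in the complex. Its CPM overlapped between the groups, at 91.1, 71.4 and 88.4 in the libraries labelled dKO and 97.7 and 89.0 in WT (log2 fold change -0.16, 95% interval -0.70 to 0.38). In TPM it lay higher in the libraries labelled dKO, at 63.5, 54.3 and 52.5, than in WT, at 51.1 and 45.5, so its direction differed between the deposited tables.

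The scaffold of the complex had values like those of its enzymes. All 3 genes were below 0 (median log2 fold change -0.69) with no overlap in CPM or TPM, and 0 passed edgeR's adjusted test, with 3 lower at an unadjusted p under 0.05. Over all tested genes the shares were 15.6% in that order in CPM, 8.81% in TPM and 5.19% lower at that p. Without WT replicate 2 the 3 became 0, without dKO replicate 1 or dKO replicate 3 it became 1, and with the replicate number as a block 1. Aimp1 had 89.9, 65.4 and 81.4 TPM in the libraries labelled dKO and 120 and 117 TPM in WT (log2 fold change -0.78, adjusted p = 0.441 by edgeR). Aimp2 had 176, 167 and 159 TPM in the libraries labelled dKO and 227 and 244 TPM in WT (log2 fold change -0.69). Eef1e1 had a log2 fold change of -0.61.

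Among the 12 cytosolic genes outside the complex, 11 had values below 0, with a median log2 fold change of -0.70. Nars had 366, 440 and 369 CPM in the libraries labelled dKO, against 522 and 954 CPM in WT, a log2 fold change of -0.91 (95% interval -1.52 to -0.31; edgeR adjusted p = 0.434). Aars, with -1.05 the lowest value in either list, had 80.8, 40.9 and 83.8 CPM in the libraries labelled dKO, against 118 and 165 CPM in WT (95% interval -1.84 to -0.25; edgeR adjusted p = 0.437). For Nars WT replicate 2 stood far above WT replicate 1, and for Aars dKO replicate 2 was the lowest library. Without dKO replicate 2 the log2 fold change of Aars was -0.78, and that of Farsb was -0.94. In GENCODE M21 Aars has an exon overlap of 1326 bases with Exosc6 on the same strand. Exosc6 is not among the counted genes, so the counts of Aars are uncertain.

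The histidyl enzyme Hars had 123, 74.3 and 105 CPM in the libraries labelled dKO, against 137 and 199 CPM in WT (log2 fold change -0.74, 95% interval -1.39 to -0.09; edgeR adjusted p = 0.456). Cars had 57.5, 51.9 and 41.1 CPM in the libraries labelled dKO, against 63.8 and 121 CPM in WT (log2 fold change -0.88, 95% interval -1.65 to -0.11; edgeR adjusted p = 0.456). In both, and in the tyrosyl enzyme Yars (-0.67) and the glycyl enzyme Gars (-0.76), WT replicate 1 lay much nearer to the libraries labelled dKO than WT replicate 2 did. The threonyl enzyme Tars (-0.40), the seryl enzyme Sars (-0.39) and Wars (-0.24) had 95% intervals that included 0. Wars had 101, 76.0 and 87.9 CPM in the libraries labelled dKO, against 83.1 and 125 CPM in WT, and in TPM its log2 fold change was 0.10.

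Vars, the valyl enzyme, was the only cytosolic member with a value above 0 in the counts, at 156, 183 and 96.5 CPM in the libraries labelled dKO, against 107 and 129 CPM in WT. Its log2 fold change was 0.30 (95% interval -0.39 to 0.98; edgeR adjusted p = 0.816), and dKO replicate 3 lay below both WT libraries. By class, with Eprs counted under class I only, 9 of 10 class I genes were below 0 with a median of -0.52 and 10 of 10 class II genes with a median of -0.70. This difference was not tested.

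Of the 13 cytosolic genes listed as known Atf4 targets (Aars, Cars, Eprs, Gars, Iars, Lars, Mars, Nars, Sars, Tars, Vars, Wars and Yars) 12 were below 0, with a median log2 fold change of -0.61. The other 7 (Dars, Farsa, Farsb, Hars, Kars, Qars and Rars) had a median of -0.64, and all 7 were below 0. Atf4 itself, named outside the rule for named genes, had 141, 182 and 122 TPM in the libraries labelled dKO and 118 and 118 TPM in WT (log2 fold change 0.14, 95% interval -0.41 to 0.70). The groups were apart in TPM and overlapped in CPM. The wider list of Atf4 response genes held 18 tested members, 10 below 0 and 8 above, with a median of -0.29 and 0 called by edgeR (3 lower and 1 higher at an unadjusted p under 0.05, where 5.19% of all tested genes were lower and 4.94% higher). The members with the smallest p-values lay on both sides of 0.

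Asns, which makes asparagine, had 74.8, 32.5 and 66.8 TPM in the libraries labelled dKO and 133 and 150 TPM in WT (log2 fold change -1.60, adjusted p = 0.430 by edgeR). Psat1, of serine synthesis, had a log2 fold change of -1.15, and Mthfd2, of mitochondrial folate metabolism, -1.56, both without overlap between the groups. Ddit3, a transcription factor of the same response, lay above WT, with 86.7, 93.7 and 78.2 TPM in the libraries labelled dKO and 46.7 and 42.1 TPM in WT (log2 fold change 0.77, adjusted p = 0.486 by edgeR).

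Promoter sequences from RefSeq (GRCm38.p6), 250 bases before to 50 after the gene start, were available for 26 members, and were searched on both strands for TGATGNAA, the composite element bound by Atf4 with C/EBP factors. It was found in 5 of 12 cytosolic and 0 of 14 mitochondrial promoters, and in 4.51% of the 27025 genes with a promoter in the table. All 5 were among the 7 Atf4 targets with a promoter, and the 5 other cytosolic promoters had no match. The stretches are shown because this element is known as the one through which Atf4 acts on its targets, with the match in capitals as it reads 5′ to 3′ on the gene's own strand. In Aars, Gars, Iars and Tars the element lies on the opposite strand, so it reads as its reverse complement. Aars holds a pair of matches, of which the upstream one is shown.
Aars, chr8:111033690-111033777, plus strand: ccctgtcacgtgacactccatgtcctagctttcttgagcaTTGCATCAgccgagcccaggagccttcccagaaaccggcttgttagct
Gars, chr6:55037931-55038018, plus strand: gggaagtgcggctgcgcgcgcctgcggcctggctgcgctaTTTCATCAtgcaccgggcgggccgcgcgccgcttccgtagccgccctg
Iars, chr13:49682097-49682179, plus strand: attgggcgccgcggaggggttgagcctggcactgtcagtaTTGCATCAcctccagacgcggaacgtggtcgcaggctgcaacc
Tars, chr15:11399626-11399713, minus strand: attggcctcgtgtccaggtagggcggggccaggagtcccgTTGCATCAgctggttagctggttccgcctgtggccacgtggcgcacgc
Yars, chr4:129189866-129189952, plus strand: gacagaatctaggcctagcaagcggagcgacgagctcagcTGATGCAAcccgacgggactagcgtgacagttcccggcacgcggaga

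The log2 fold changes of these 5 genes ran from -1.05 for Aars to -0.40 for Tars, and those of the other cytosolic genes from -0.92 for Farsb to 0.30 for Vars. Promoters were available for 12 of 20 cytosolic genes, so the second range mixes genes without a match and genes not searched. The palindromic E-box CACGTG, bound by Myc among other factors, occurred in 4 of 12 cytosolic and 1 of 14 mitochondrial promoters and in 8.09% of all. Farsb, with the smallest p-value of the members, has the E-box and no TGATGNAA in this window, and its stretch is shown for that reason. The E-box and the Atf4 element shared no bases in the promoters of Aars, Iars and Tars, which hold both. A match is a description of letters and not of binding.
Farsb, chr1:78488891-78488976, minus strand: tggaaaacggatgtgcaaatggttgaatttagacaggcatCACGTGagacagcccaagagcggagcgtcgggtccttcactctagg

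Among the mitochondrial enzymes, Rars2, for arginine, stood lowest. It had 100, 93.0 and 119 CPM in the libraries labelled dKO, against 177 and 166 CPM in WT, a log2 fold change of -0.72 (95% interval -1.20 to -0.24; edgeR adjusted p = 0.434), with no overlap in CPM or TPM. Cars2, for cysteine, had 38.6, 41.9 and 40.3 CPM in the libraries labelled dKO, against 57.2 and 55.1 CPM in WT (log2 fold change -0.48, 95% interval -1.10 to 0.15; edgeR adjusted p = 0.590). Replicates of Cars2 lay close together in CPM, and the groups were apart. In GENCODE M21 it has an exon overlap of 215 bases with Naxd on the opposite strand, so its counts are uncertain.

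Yars2, for tyrosine, had 48.0, 30.9 and 56.6 CPM in the libraries labelled dKO, against 77.0 and 59.5 CPM in WT (log2 fold change -0.60, 95% interval -1.37 to 0.18; edgeR adjusted p = 0.589). In TPM its log2 fold change was 0.01, with the highest value, 43.3 TPM, in dKO replicate 2, which had the lowest CPM. Tars2, for threonine, had 119, 75.2 and 86.9 CPM in the libraries labelled dKO, against 119 and 141 CPM in WT (log2 fold change -0.47, 95% interval -1.07 to 0.13; edgeR adjusted p = 0.586), so dKO replicate 1 was level with WT replicate 1.

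Lars2, for leucine, the mitochondrial enzyme with the second highest mean level, had 222, 181 and 298 CPM in the libraries labelled dKO, against 232 and 217 CPM in WT (log2 fold change 0.06, 95% interval -0.50 to 0.61; edgeR adjusted p = 0.973). The WT libraries lay inside the range of the libraries labelled dKO. Iars2, for isoleucine, had 50.3, 66.8 and 56.0 CPM in the libraries labelled dKO, against 45.9 and 51.9 CPM in WT (log2 fold change 0.24). In GENCODE M21 it shares an exon overlap of 2034 bases with Rab3gap2 on the opposite strand, so its counts are uncertain.

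Vars2, for valine, had the highest value of all members. It had 10.8, 10.2 and 9.63 CPM in the libraries labelled dKO, against 6.69 and 2.32 CPM in WT, a log2 fold change of 1.18 (95% interval -0.58 to 2.93; edgeR adjusted p = 0.655). The groups were apart in CPM but overlapped in TPM, at 9.38, 4.06 and 7.29 in the libraries labelled dKO and 4.72 and 1.72 in WT. Counts of Vars2 were low, from 58 in WT replicate 2 to 293 in dKO replicate 1. In GENCODE M21 it has an exon overlap of 339 bases with Gm20483 on the opposite strand, so its counts are uncertain. With Vars also above 0, both valyl genes had positive values, and neither passed the test.

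The 3 scarcest mitochondrial genes, Mars2, Vars2 and Aars2, had the widest intervals. Mars2, for methionine, had 146, 1 and 420 counts in dKO replicates 1, 2 and 3, against 262 and 210 counts in WT, and its interval ran from -3.68 to 2.91 around a log2 fold change of -0.39. Aars2, for alanine, had 13.9, 3.87 and 11.1 CPM in the libraries labelled dKO, against 12.5 and 13.7 CPM in WT (log2 fold change -0.44, 95% interval -2.00 to 1.12; edgeR adjusted p = 0.904). For both the low library was dKO replicate 2, and the other libraries of the groups overlapped.

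The remaining mitochondrial genes had values between -0.58 for the glutamyl enzyme Ears2 and -0.03 for the histidyl enzyme Hars2, with overlapping CPM in each. Those for serine (Sars2, -0.26), asparagine (Nars2, -0.23), proline (Pars2, -0.18), phenylalanine (Fars2, -0.17) and tryptophan (Wars2, -0.06) lay between them. Hars and Hars2 have an exon overlap of 195 bases on opposite strands in GENCODE M21, and the log2 fold changes were -0.74 for Hars and -0.03 for Hars2. The sign of Hars2 turned to 0.22 in TPM, and that of Wars2 to 0.24.

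Within the pairings by amino acid, the cytosolic gene had the lower log2 fold change in 14 of 17, with a median difference of -0.40 between the cytosolic and the mitochondrial value. The widest gaps were for valine (0.30 for Vars and 1.18 for Vars2), isoleucine (-0.52 for Iars and 0.24 for Iars2) and phenylalanine (-0.92 for Farsb and -0.17 for Fars2). The counts of Vars2 and Iars2 are uncertain, as given above, and Farsa, at -0.42, lay nearer to Fars2 than Farsb did. The order was turned for Rars and Rars2 (-0.51 and -0.72), Eprs and Ears2 (-0.49 and -0.58) and Tars and Tars2 (-0.40 and -0.47). Eprs and Fars2 each enter a pair of these comparisons, so the pairings are not independent, and the differences were not tested.

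**Figure D3:**
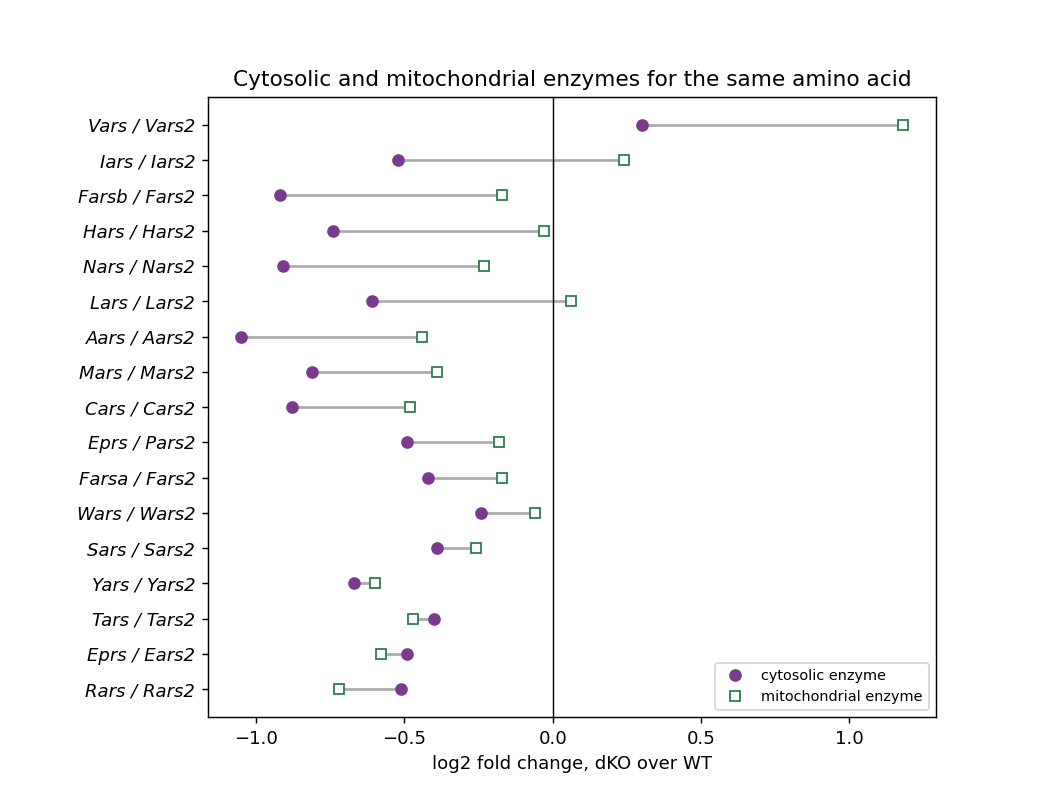
Log2 fold change, dKO over WT, of the cytosolic gene (filled circles) and the mitochondrial gene (open squares) for the same amino acid, joined by a line. In 14 of 17 pairings the cytosolic value is the lower one.

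Among genes that work beside the synthetases, the elongation factors were mixed. Of the 5 elongation factor genes that bring charged tRNA to the ribosome or move it on, 3 were below 0 and 2 above, with a median log2 fold change of -0.30 and 0 called by edgeR (2 lower at an unadjusted p under 0.05, against 5.19% of all tested genes). The exchange factor subunit Eef1d had 256, 333 and 242 TPM in the libraries labelled dKO and 315 and 390 TPM in WT, and the groups overlapped. In CPM it had 223, 230 and 191 in the libraries labelled dKO, against 310 and 440 in WT, without overlap. Its log2 fold change in the counts was -0.80 (adjusted p = 0.430 by edgeR), and Eef1g (-0.50) and Eef1b2 (-0.30) were also below 0. The translocase Eef2 had a log2 fold change of 0.10 in the counts. Its levels were 638, 719 and 594 TPM in the libraries labelled dKO and 599 and 467 TPM in WT, and the groups overlapped.

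All 10 genes of tRNA maturation, export and editing were below 0 (median -0.35), as were 47.8% of all tested genes. By edgeR 0 were called and 2 were lower at an unadjusted p under 0.05, against 5.19% of all tested genes. Rpp30, a subunit of the ribonuclease that trims the 5′ end of tRNA, had 81.9, 68.8 and 78.2 TPM in the libraries labelled dKO and 144 and 178 TPM in WT, a log2 fold change of -1.26 (95% interval -1.88 to -0.65; edgeR adjusted p = 0.430). The La protein gene Ssb had -0.47, Aarsd1 -0.78 and the CCA-adding enzyme Trnt1 -0.35. Of the 8 genes of mitochondrial tRNA charging and elongation 7 were below 0 (median -0.34), with 0 called by edgeR and 1 lower at an unadjusted p under 0.05, against the same 5.19%. The elongation factor Tsfm had 59.7, 59.7 and 38.7 TPM in the libraries labelled dKO and 88.2 and 84.6 TPM in WT (log2 fold change -0.93, adjusted p = 0.436 by edgeR), followed by Qrsl1 (-0.69), Gatc (-0.52) and Gfm1 (-0.40).

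The size of the cytosolic difference depended on WT replicate 2. Summed over the cytosolic genes, CPM was 3444.6, 3902.2 and 3370.8 in dKO replicates 1, 2 and 3, against 4617.7 and 6255.1 in WT replicates 1 and 2. The 10 granulocyte progenitor markers, which include myeloperoxidase (Mpo) and the elastase Elane, summed to 13636.0, 17272.1 and 12625.7 CPM in the libraries labelled dKO, against 7944.2 and 46103.0 CPM in WT replicates 1 and 2, with none at 0. WT replicate 2 was thus highest in both, whereas WT replicate 1 had the lowest sum of these markers and a synthetase sum above all libraries labelled dKO. Stem cell markers ran the other way, being lowest in WT replicate 2. Of the granulocyte progenitor markers 10 of 10 were below 0 in log2 fold change (median -0.97), and 1 of 10 had every library labelled dKO below WT, where 15.6% of tested genes did.

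Most tested markers of erythroid cells and megakaryocytes, B cells, mast cells and basophils, and T and NK cells had log2 fold changes above 0. Erythroid and megakaryocyte markers summed to 1721.9, 1774.7 and 2244.3 CPM in the libraries labelled dKO, against 1242.0 and 925 CPM in WT (10 of 12 above 0, median log2 fold change 1.17). B cell markers summed to 131, 300 and 354 CPM in the libraries labelled dKO, against 166 and 113 CPM in WT (6 of 7 tested above 0, median 1.86). Every library labelled dKO lay above both WT libraries for 5 erythroid and megakaryocyte and 4 B cell genes, where 13.7% of tested genes did.

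For mast cells and basophils 5 of 7 markers had every library labelled dKO above both WT libraries, with a median log2 fold change of 1.61. That order in CPM held for 13.7% of all tested genes. Among the 5 was Cma1, with 1 count in each WT library. The sums of the 7 markers overlapped, at 323, 968 and 463 CPM in the libraries labelled dKO, against 194 and 405 CPM in WT. In WT replicate 2, 342 of the 405 CPM were Mcpt8, a basophil protease. The T and NK cell sum was carried by Nkg7, a granule protein gene, at 562, 677 and 671 CPM in the libraries labelled dKO, against 704 and 1880.5 CPM in WT, while 3 of 4 tested genes of that list were above 0 (median 1.47). Of its 7 genes, Cd3e had no count in any library and Cd3g had 178 counts in dKO replicate 2 and 21 or fewer in each of the others. The part of these other cell types in the synthetase values was not tested.

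Without WT replicate 2, 18 of 20 cytosolic members were still below 0, with a median of -0.42. Without WT replicate 1, 19 of 20 were below 0, with a median of -0.76. In either fit WT is a single library, assumed to vary like the others, so only sizes are given. In the second that library is WT replicate 2, with its high granulocyte progenitor sum. Without dKO replicate 1, 7 of 20 had an unadjusted p under 0.05 as lower by edgeR (4.59% of all tested genes), and the median was -0.55. Without dKO replicate 3 that number was 5 (4.75% of all) and the median -0.57. Without dKO replicate 2, the library that stood apart, it was 11 (4.48% of all) and the median -0.61. No member passed edgeR's adjusted test in any of these.

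**Figure D4:**
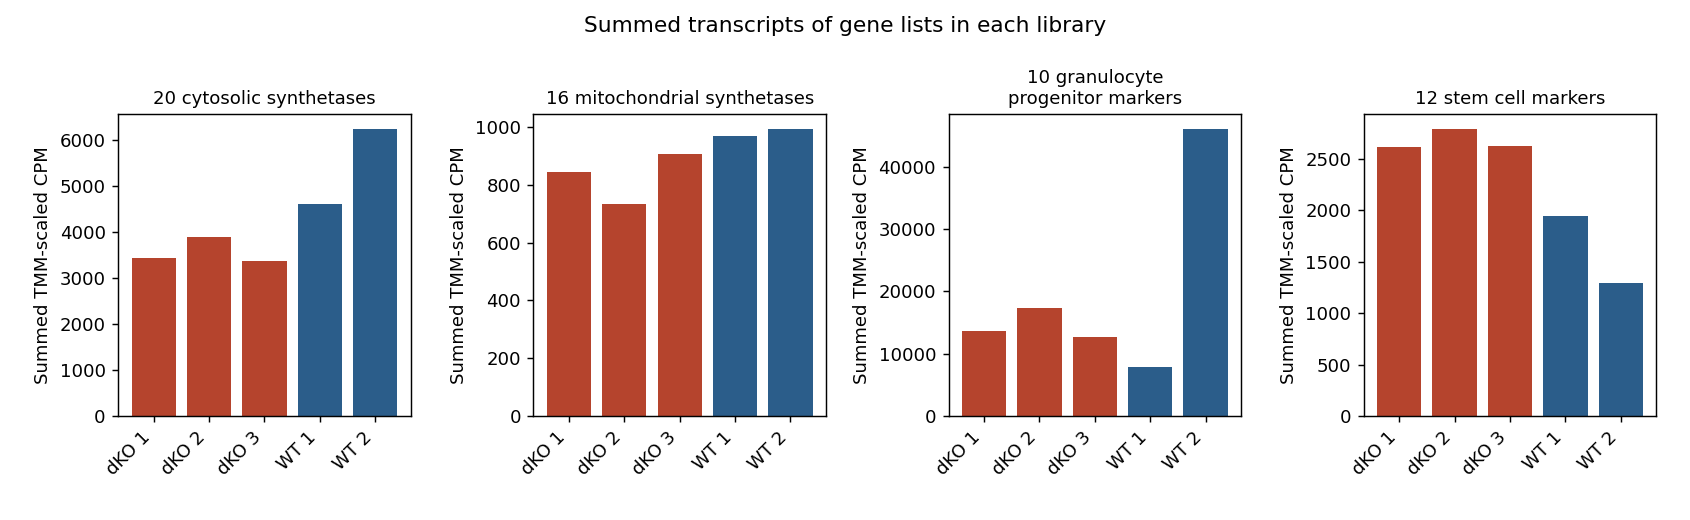
Summed TMM-scaled CPM in each library for the 20 cytosolic synthetases, the 16 mitochondrial synthetases, 10 granulocyte progenitor markers and 12 stem cell markers. Each bar is a library, red for those labelled dKO and blue for WT. The cytosolic sum is lowest in dKO replicate 3 (3370.8 CPM) and highest in WT replicate 2 (6255.1 CPM), which also has the highest granulocyte progenitor sum (46103.0 CPM).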

How the data were processed

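The authors deposited a table of raw counts per gene and a table of TPM, which they scaled to depth and transcript length, for every library. Tools named in the submitters' processing notes are TopHat2 2.1.1, HTSeq, RSEM 1.2.31, DESeq2, Trimmomatic and FastQC 0.11.5, with the build mm9, but not the tool behind each table. The library method, Smart-seq2 per the labels' protocols, does not mark strand in its standard form. Of 33924 entries, 30 name no gene, hold 0.216% to 0.269% of the counts and were left out.

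The test of the counts was that of edgeR 4.0.16 under R 4.3.3 (TMM, filterByExpr, robust quasi-likelihood, 13696 genes kept, all 36 members among them), 3 dKO against 2 WT libraries without covariates, with Benjamini-Hochberg adjusted p under 0.05 over all genes. The common dispersion was 0.461. Log2 fold changes are from this fit of the counts, also where levels are given in TPM, unless TPM or another fit is named. Scripts were checked on simulated data with changes larger than those of the members, so the check does not bear on changes of their size. A count of 0 allows up to 3 counts, or 0.107 to 0.187 CPM by library, which covers counting error only. The members, lists and tests were chosen with earlier results of these data known, so lists are described by counts and medians and not tested. All members are named. Values in every library are given for the 8 cytosolic and 5 mitochondrial members with the smallest p and for the 3 highest and 3 lowest of each list by TPM, and up to 4 members of other lists by p; values of other members shown were chosen after they were seen. Exon overlaps come from GENCODE M21 (GRCm38), of another build than mm9, by identifier. They show that 13 members share exon bases with another gene in the files, 6 cytosolic and 7 mitochondrial, and the counts of each are uncertain for this reason. Cars is among them, with 211 bases shared with Gm15580 on the opposite strand. A blastn search for copies (at least 95% identity over 300 bases) found Gm4849 for Iars, which is not used here, and otherwise the overlapping genes Exosc6 for Aars and Rab3gap2 for Iars2.

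Alternatives were DESeq2 1.42.0, limma 3.58.1 (voom with sample weights; log2 TPM with a pseudocount of 1 or 0.1), RLE and upper quartile scaling, no filter or 5 CPM in 2 libraries, the replicate number as a block, and leaving out each library.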

Additional observations from a re-analysis of the deposited data

How the results depend on the processing

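Of 504 values of the 36 members under 14 alternatives, 479 kept their direction, and 27 members kept it under all of them. The changes of sign concerned values that no test called. With log2 TPM and a pseudocount of 1 they were Qars (0.23), Wars (0.10), Hars2 (0.22), Wars2 (0.24) and Yars2 (0.01), and with a pseudocount of 0.1 the same genes at 0.23, 0.10, 0.22, 0.26 and 0.01. With limma-voom the sign changed for Fars2 (0.01), with the filter of 5 CPM for Hars2 (0.00), and with the replicate block for Hars2 (0.07), Lars2 (-0.16) and Wars2 (0.05). Leaving out each library in turn, Wars ranged from -0.51 to 0.08, Fars2 from -0.41 to 0.17, Hars2 from -0.33 to 0.34, Lars2 from -0.15 to 0.22, Mars2 from -1.74 to 0.19, Pars2 from -0.41 to 0.07 and Wars2 from -0.26 to 0.16.

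The cytosolic median was -0.43 on log2 TPM with either pseudocount and -0.42 to -0.76 when a library was left out. The mitochondrial median was -0.08 on log2 TPM with a pseudocount of 1 and -0.20 to -0.35 when a library was left out. The number of genes called over the whole table, 0 by edgeR, was 245 with DESeq2, 8 with no filter, 5 and 2 on log2 TPM with pseudocounts of 1 and 0.1, 1 with the replicate block and 0 to 5 when a library was left out. At an unadjusted p under 0.05 edgeR had 711 genes lower and 677 higher. Farsb was called by DESeq2 alone, and the lowest adjusted p of any member under the other alternatives was 0.177. The cause of these differences was not tested. Whether the replicate numbers pair the samples cannot be decided from these libraries. Deviations from the group means of same-numbered libraries correlated at 0.033 and 0.046. The deviations of 2 WT libraries mirror each other, so the correlations with the other WT library were -0.033 and -0.046. Under the block 8 cytosolic members were lower at an unadjusted p under 0.05 (4.51% of all tested genes), against 12 without it (5.19% of all). Replicate 3 exists only among the libraries labelled dKO, so under the block that library adds nothing to the comparison. Of the mitochondrial genes 13 of 16 had at least 100 counts in every library, and of the cytosolic genes 20 of 20.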
